A study of Mus musculus with 2 samples.

Results

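Inhibitory checkpoint genes of T cells were read in single white blood cells from mouse melanomas. The set is 8 genes of the 31053 in the matrix, picked by symbol, with earlier results of these data known. Pdcd1, Lag3, Havcr2, Tigit, Ctla4 and Cd160 encode surface receptors, and Tox and Rgs16 encode intracellular proteins. All 8 were found. The data are droplet 3′ single-cell RNA counts of sorted viable CD45+ cells, CD45 being the surface marker shared by white blood cells, from B16F10 tumours, a transplantable mouse melanoma, taken 2 weeks after injection. There were 2 samples, 1 per genotype, each from 5 pooled tumours. The WT mice were LysM-cre x Rel+/+. The others, LysM-cre x RelloxP/loxP, lose c-Rel in myeloid cells. Both carry LysM-cre, a Cre driver active in myeloid cells and not in T cells, and the ages of the mice are not given in the sources used here.

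The barcodes carry a library number, 1 or 2, which no source used here ties to a genotype. The libraries are therefore reported by number, no genotype is compared, and with 1 library per genotype there is no replicate and no test. Intervals are 95% intervals for counting error only. The UMI count of a gene, the number of its distinct captured molecules, was summed over the barcodes of a class and scaled by all UMIs of that class to counts per 1000000 UMIs (CPM).

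PD-1 (Pdcd1), LAG-3 (Lag3), TIM-3 (Havcr2), TIGIT (Tigit) and CTLA-4 (Ctla4) dampen signals from the T cell receptor or from costimulation after they bind ligands on tumour or antigen-presenting cells. T cells stimulated for long periods, as in tumours, tend to carry several of them and to express the nuclear factor TOX. CTLA-4 is also carried at rest by regulatory T cells, the FOXP3-expressing cells that restrain other T cells. CD160 is a receptor of CD8 T cells and NK cells that binds HVEM, and RGS16 is a GTPase activator that shortens G protein signalling downstream of chemokine receptors.

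The genes lie on 6 chromosomes of GRCm38 (mm10). Pdcd1 is at chr1:94038305-94052553 on the minus strand, Ctla4 at chr1:60887000-60915832 on the plus strand and Rgs16 at chr1:153740349-153745468 on the plus strand. Lag3 is at chr6:124904361-124911705 (minus), Havcr2 at chr11:46454935-46481255 (plus), Tigit at chr16:43648867-43664146 (minus), Cd160 at chr3:96798763-96829351 (minus) and Tox at chr4:6686353-6991557 (minus). Each is a protein-coding gene in GENCODE vM21. UMIs came from the 3′ end of the transcripts, and the counts do not tell isoforms apart.

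Start-site windows are shown for the 3 receptor genes with the most different class patterns below: Pdcd1, found in T classes, Ctla4, at its highest level where Foxp3 was seen, and Havcr2, found in T and in myeloid classes. Each window is 300 bases of RefSeq sequence (GRCm38.p6), 5′ to 3′ on the gene's strand, from 250 bases before the start to 50 after it. Capitals mark the AP-1 motif TGANTCA and the NFAT core GGAAA, searched on both strands, so the core on the other strand reads TTTCC.

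Pdcd1, chr1:94052504-94052803, minus strand: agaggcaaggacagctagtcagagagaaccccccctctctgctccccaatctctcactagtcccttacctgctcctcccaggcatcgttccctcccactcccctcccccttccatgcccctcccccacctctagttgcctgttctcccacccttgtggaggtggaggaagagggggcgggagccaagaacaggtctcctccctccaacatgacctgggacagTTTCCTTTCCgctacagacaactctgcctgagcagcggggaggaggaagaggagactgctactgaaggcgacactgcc
Ctla4, chr1:60908775-60909074, plus strand: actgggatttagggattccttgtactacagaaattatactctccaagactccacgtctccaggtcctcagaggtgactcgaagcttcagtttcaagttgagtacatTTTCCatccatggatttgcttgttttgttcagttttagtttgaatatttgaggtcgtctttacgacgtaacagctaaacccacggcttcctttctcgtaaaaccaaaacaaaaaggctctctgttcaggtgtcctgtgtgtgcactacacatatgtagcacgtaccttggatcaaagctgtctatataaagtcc
Havcr2, chr11:46454681-46454980, plus strand: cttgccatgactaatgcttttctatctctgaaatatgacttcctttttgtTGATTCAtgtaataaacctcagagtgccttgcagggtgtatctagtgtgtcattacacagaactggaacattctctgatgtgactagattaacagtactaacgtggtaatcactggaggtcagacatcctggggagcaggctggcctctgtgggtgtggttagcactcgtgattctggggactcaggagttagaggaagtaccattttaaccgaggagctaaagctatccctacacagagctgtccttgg

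The Pdcd1 window held 2 adjoining NFAT cores and no AP-1 motif, the Ctla4 window 1 NFAT core, and the Havcr2 window 1 AP-1 motif and no NFAT core. These matches are descriptions of the letters. Of 32851 windows of the same length over all genes, 61.3% held the NFAT core and 7.81% the AP-1 motif. The Ctla4 start is that of RefSeq and lies inside the longer gene of the annotation used for positions.

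Library 1 held 7688 barcodes with a median of 1588 UMIs and library 2 held 10564 with a median of 4290. They shared 3609 barcode sequences. After the filters on depth, 1991 and 1529 barcodes had a twin sequence in the other library with more than 10 times their UMIs and were left out as copies. All filters together retained 4910 and 7545. Melanoma-like barcodes were the largest class in both libraries (1974 and 4794) although the sort was for CD45+ cells. T barcodes, those with at least 1 UMI of Cd3d, Cd3e or Cd3g in T-like or NK-like clusters, numbered 728 in library 1 and 405 in library 2.

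T barcodes were split by lineage genes. CD8-gated barcodes had a UMI of Cd8a or Cd8b1 and none of Cd4 or Foxp3, and numbered 347 (47.7% of T barcodes, 44–51.4%) and 236 (58.3%, 53.3–63.1%). Regulatory-gated barcodes had a Foxp3 UMI and no Cd8 UMI, and were few, at 38 and 6. CD4-gated barcodes, with Cd4 and neither of the others, numbered 23 and 8. Unsplit T barcodes showed none of these genes and were shallow, with median UMIs of 878 and 752 against 1657 and 1441 in the CD8 gate. NK barcodes, in the NK-like cluster and with no Cd3 UMI, numbered 319 and 109 and had medians of 812 and 651. The 7 T markers fixed for naming summed to 4922 and 5264 CPM in CD8-gated barcodes and to 577 and 493 CPM in NK barcodes. The 7 NK markers summed to 200.4 and 170.5 CPM in the CD8 gate and to 2215 and 1973 CPM in NK barcodes. Clusters were named from these same markers, so these levels describe the classes and are no separate support for their names.

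Melanoma markers were seen in T and NK classes too, and their part in the levels below was not tested. The summed melanoma markers stood at 5.67% and 6.47% of their melanoma-like level in CD8-gated barcodes, and at 3.42% and 10.6% in NK barcodes. Melanoma-like barcodes themselves held little of the set: Pdcd1 stood there at 0.278 and 0.256 CPM, which is 0.0807% and 0.0828% of its CD8-gated level. The summed T markers stood there at 0.142% and 0.129% of theirs. Pdcd1 and Tox (0.0456% and 0.0933%) lay below these shares in both libraries. Havcr2 (1.18% and 0.581%), Lag3 (0.587% and 0.48%), Rgs16, Ctla4 and Tigit lay above them in both, and Cd160 lay above in library 2 only. No intervals were computed for these shares, so the sides are descriptions only. Melanoma-like barcodes held 1 and 2 UMIs of Tigit, 2 and 6 of Tox and 2 and 10 of Cd160, and the places of these genes are not firm. Ctla4 in library 2 lay close to the T markers, at 0.156%.

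Pdcd1, whose product PD-1 recruits phosphatases to the T cell receptor complex, was found mainly in T barcodes in both libraries. CD8-gated barcodes held 325 UMIs in library 1 and 138 in library 2, or 345 (308–384) and 309.5 (260–366) CPM. Pdcd1 was seen in 41.2% (36–46.6%) and 37.7% (31.5–44.2%) of them. Unsplit T barcodes stood lower, at 170.3 (129–221) and 214 (146–304) CPM, with intervals that overlapped those of the CD8 gate in library 2 only. CD4-gated barcodes held 12 and 4 UMIs, or 418 (216–731) and 326 (88.9–835) CPM, which overlapped the CD8 gate in both libraries. The NK class held 1 UMI in each library. Monocyte-like barcodes stood at 2.45 and 3.82 CPM and macrophage-like barcodes at 1.2 and 2.16 CPM, where the summed T markers also stood at 0.305% to 1.54% of their CD8-gated level.

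**Figure D1:**
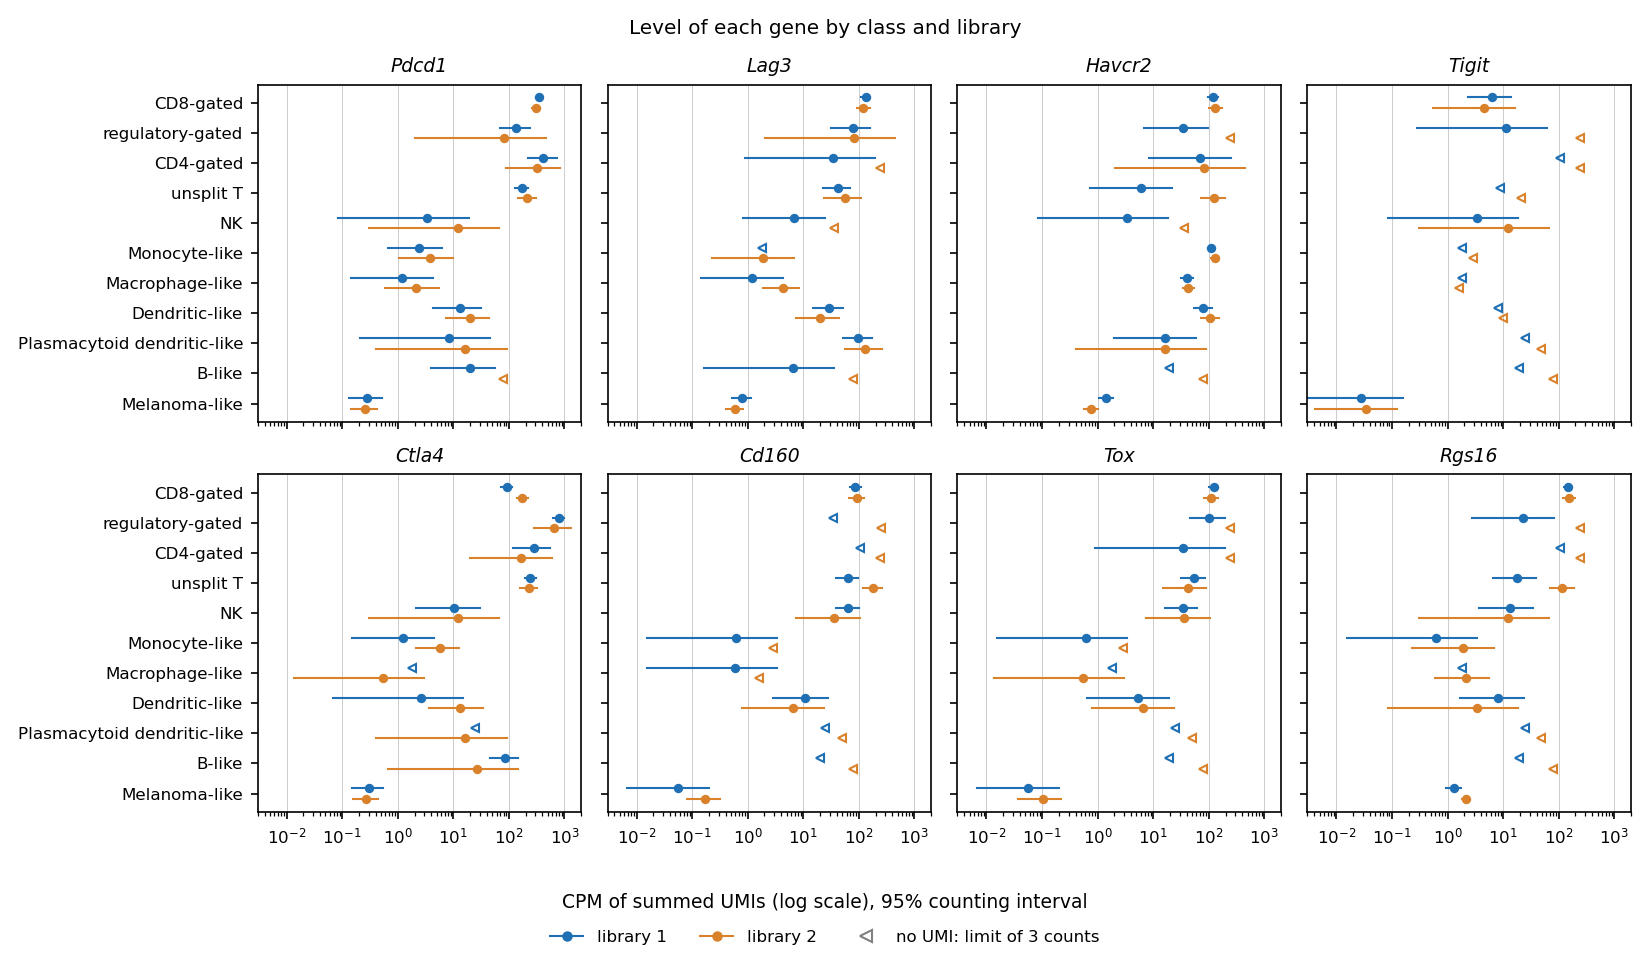
Level of each gene in CPM (horizontal log axis) by class (vertical axis) for library 1 (blue) and library 2 (orange), with 95% counting intervals; open triangles mark classes without a UMI, placed at the limit of 3 counts. Pdcd1 is high in the T classes, Ctla4 peaks in regulatory-gated barcodes at 788 and 655 CPM, Havcr2 in monocyte-like barcodes (111 and 131 CPM) lies within the CD8-gated intervals, and Tigit is near its limits throughout.

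Lag3 encodes a CD4-like receptor that binds MHC class II. CD8-gated barcodes held 125 and 54 UMIs, or 133 (110.3–158) and 121 (91–158) CPM, in 25.4% and 19.1% of barcodes. Plasmacytoid dendritic-like barcodes, an interferon-producing lineage, held 12 and 8 UMIs, or 98.5 (50.9–172) and 131 (56.4–257) CPM. The levels of these 2 classes overlapped in both libraries. The summed T markers in the plasmacytoid class were 1.5% and 6.51% of their CD8-gated level, whereas Lag3 was 74.3% and 108% of its own. Unsplit T barcodes stood at 41.8 and 55.3 CPM and other dendritic-like barcodes at 29.4 and 19.9 CPM. Macrophage-like barcodes stood at 1.2 and 4.32 CPM and monocyte-like barcodes at 0 CPM in library 1, which allows up to 1.84 CPM, and at 1.91 CPM in library 2.

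Havcr2 encodes TIM-3, which is carried by exhausted T cells and by dendritic and other myeloid cells. CD8-gated barcodes held 113 and 59 UMIs, or 119.8 (98.7–144) and 132 (101–171) CPM. Monocyte-like barcodes stood at 111 (95.9–129) and 131 (109.8–155) CPM, within the CD8-gated intervals, and dendritic-like barcodes at 80.1 (54.1–114) and 106 (72.7–150) CPM. Macrophage-like barcodes were lower than both, at 41.4 (32.2–52.4) and 42.7 (33.8–53.2) CPM. The 816 and 943 monocyte-like barcodes held 182 and 137 Havcr2 UMIs, more than the CD8 gate in each library. The T markers in monocyte-like barcodes were 0.747% and 1.54% of their CD8-gated level, while Havcr2 was 93.1% and 98.8% of its own. NK barcodes held 1 and 0 Havcr2 UMIs.

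Ctla4 encodes a receptor that competes with CD28 for CD80 and CD86. Its level was highest where Foxp3 was seen: regulatory-gated barcodes held 70 UMIs over 38 barcodes in library 1 (788 CPM, 614–995) and 8 UMIs over 6 barcodes in library 2 (655 CPM, 283–1290). It was seen in 78.9% (62.7–90.4%) and 50% (11.8–88.2%) of these barcodes. CD8-gated barcodes stood at 91.2 (72.9–113) and 175 (138–218) CPM, and unsplit T barcodes at 242 (192–301) and 228 (157–320.2) CPM. In library 1 the intervals of these 3 classes did not overlap. In library 2 the unsplit T interval overlapped both of the others, and the CD8 and regulatory gates stood apart. CD4-gated barcodes held 8 and 2 Ctla4 UMIs, or 279 (120.4–549.7) and 163 (19.8–589) CPM. Their interval overlapped that of the regulatory gate in library 2 only. There 1 barcode held 4 of the 8 regulatory-gated Ctla4 UMIs. B-like barcodes of library 1 held 13 Ctla4 UMIs in 7 of 162 barcodes, or 84.8 CPM (45.1–145). The summed T markers stood in that class at 9.67% of their CD8-gated level, and their part in this value was not tested.

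Tigit, which encodes a receptor for PVR and nectins, was barely detected. CD8-gated barcodes held 6 and 2 UMIs, or 6.36 (2.33–13.8) and 4.49 (0.543–16.2) CPM. The regulatory gate held 1 and 0 UMIs, and NK barcodes 1 UMI in each library. Unsplit T barcodes had none, which allows up to 8.96 and 20.7 CPM. No order of classes could be read for Tigit at this depth.

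Cd160 was shared by CD8-gated and NK barcodes. The CD8 gate stood at 86.9 (69.1–108) and 92 (66–125) CPM on 82 and 41 UMIs, and NK barcodes at 64.1 (38.6–100.2) and 36.1 (7.44–105) CPM on 19 and 3 UMIs, with overlapping intervals in both libraries. Unsplit T barcodes differed between the libraries, at 62.7 (38.8–95.9) and 179.6 (117–263) CPM. The regulatory gate and the CD4 gate held no Cd160 UMI in either library, which allows up to 33.8 and 246 CPM in the first and 105 and 245 CPM in the second. In monocyte-like and macrophage-like barcodes Cd160 was seen 1 time each in library 1 and not in library 2.

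Tox, which encodes an HMG-box factor tied to exhaustion and to the development of CD4 T and NK cells, stood at 122 (101–146) and 109.9 (81.3–145) CPM in CD8-gated barcodes. Unsplit T barcodes stood at 53.8 (31.9–85) and 41.5 (15.2–90.2) CPM and NK barcodes at 33.8 (16.2–62.1) and 36.1 (7.44–105) CPM, 2 neighbouring levels that overlapped. In regulatory-gated barcodes of library 1, 9 UMIs gave 101 CPM (46.3–192), which overlapped the CD8 gate, and library 2 had none. No myeloid class held more than 2 Tox UMIs.

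Rgs16 stood at 147 (124–174) and 155 (120.4–196) CPM in CD8-gated barcodes, on 139 and 69 UMIs. NK barcodes held 4 and 1 UMIs, at 13.5 (3.68–34.6) and 12 (0.305–67) CPM. Unsplit T barcodes differed between the libraries, at 17.9 (6.58–39) and 117 (68.4–188) CPM. Havcr2 did the same in that class, at 5.97 (0.723–21.6) and 124 (73.7–197) CPM, while its Pdcd1, Lag3, Ctla4 and Tox levels had overlapping intervals. In melanoma-like barcodes Rgs16 stood at 1.28 and 2.15 CPM, 0.868% and 1.39% of its CD8-gated level, against 0.142% and 0.129% for the summed T markers there.

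CD8-gated barcodes were then set against NK barcodes, the other cytotoxic lymphocytes of these tumours. A gene was tested where the 2 classes together held 20 or more of its UMIs in library 1 and also in library 2, and called when its CPM was at least 2 times higher in the same class in both libraries. Of 7 genes tested, 6 were called higher in CD8-gated barcodes and none in NK barcodes. Over all 3276 genes tested 6.93% were called higher in the CD8 gate and 4.06% higher in NK barcodes. Pdcd1 was 102 times (18.2–4044) higher in library 1 and 25.7 times (4.54–1024) in library 2. Ctla4 was 9 (2.98–44.5) and 14.5 (2.53–582) times higher, Rgs16 10.9 (4.17–40.6) and 12.9 (2.23–515) times, and Tox 3.61 (1.89–7.73) and 3.05 (0.983–15.3) times, its lower bound falling under 1 in library 2. Lag3 was 19.6 times higher (5.32–164) in library 1, and Havcr2 35.5 times (6.24–1414). Neither had a UMI in NK barcodes of library 2, where they were at least 3.36-fold and at least 3.67-fold higher against the limit of 3 counts. Cd160 was not called, at 1.36 (0.815–2.36) and 2.55 (0.813–12.9) times, and Tigit was not tested. With only barcodes of at least 1000 UMIs, or with barcodes thinned to 1000 UMIs, 0 genes were called, since NK barcodes of library 2 then numbered 13.

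Other listed genes showed what else separated these classes. Of 7 proliferation genes tested 6 were called higher in the CD8 gate, from Stmn1 (3.38 times over both libraries, 2.6–4.46) to Mki67 (8.47 times, 4.4–18.7). Effector genes went both ways, with 5 of 15 called higher in the CD8 gate and 3 higher in NK barcodes. At the ends were Gzmf, a granzyme, with 479 and 1105 UMIs in the CD8 gate against 0 and 2 in NK barcodes, and Gzma, at 221 and 211 CPM against 7458 and 4403 CPM. Among naive and progenitor genes, Ccr7 was called higher in the CD8 gate (3.75 times over both libraries, 2.04–7.67), and Satb1 (5.49 times, 4.18–7.25) and Klf2 (2.86 times, 2.2–3.71) higher in NK barcodes. Among 10 activation and costimulation genes 4 were called higher in the CD8 gate, led by Tnfrsf4 (OX40; 77.8 times, 21.4–644), and none was higher in NK barcodes. Among 9 exhaustion-linked factors only Eomes was called, 4.82 times higher in NK barcodes, and Ikzf2 had the highest ratio (1.8, 1.26–2.63). Of 4 other inhibitory receptors tested none was called, with ratios from 0.693 (Klrc1) to Cd5, which had no NK UMI. Of 12 signalling genes tested, Lat was higher in the CD8 gate (8.57 times) and Dusp2 (3.4 times) and Rgs2 in NK barcodes. Ligands of the receptors were called higher in NK barcodes for 3 of 4 tested, led by Pdcd1lg2 (2.68 times), while Hmgb1 was not called (1.53, 1.3–1.81).

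**Figure D2:**
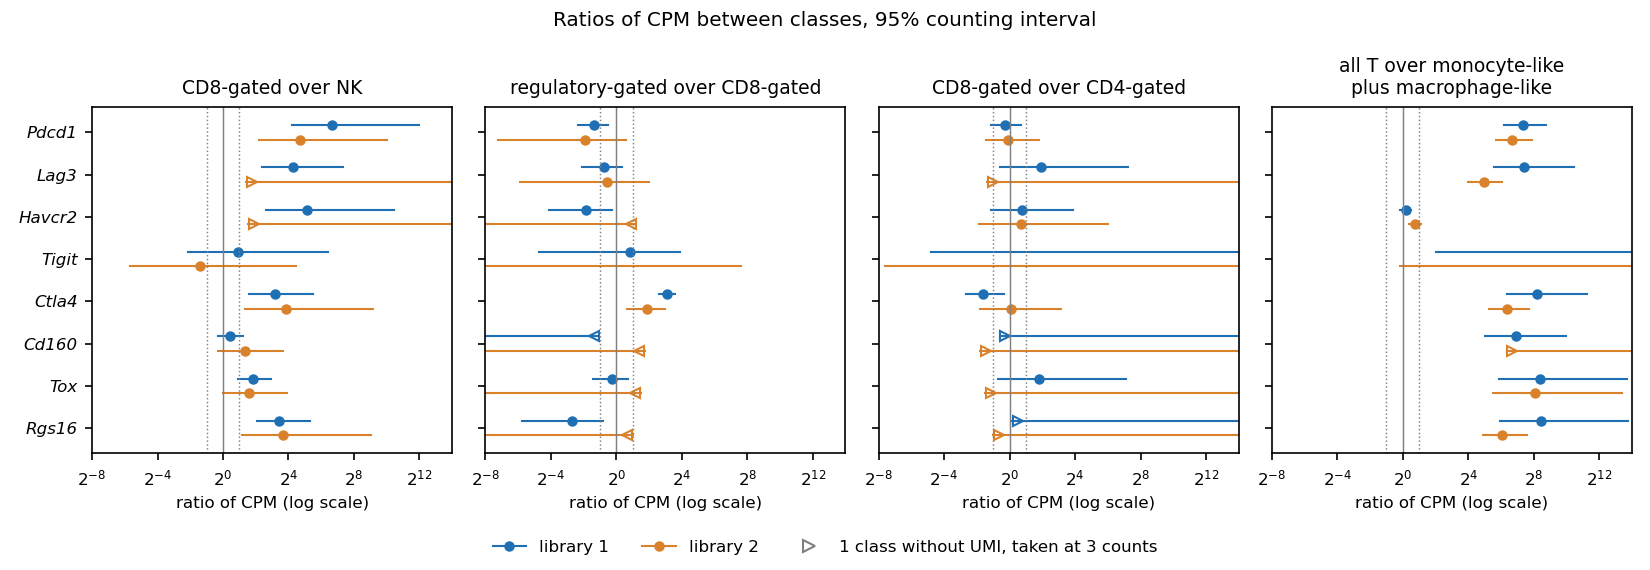
Ratio of CPM (horizontal log axis, 95% counting interval) for each gene in 4 class comparisons, library 1 in blue and library 2 in orange; dotted lines mark 2 times in each direction, and open triangles mark a class without a UMI taken at 3 counts. Receptors other than Cd160 and Tigit lie right of 2 times against NK, Ctla4 lies right and Pdcd1 left in the regulatory gate, and Havcr2 lies between the lines against monocyte-like plus macrophage-like barcodes.

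Regulatory-gated against CD8-gated barcodes asked whether the set splits among T cells. Ctla4 was called higher in the regulatory gate, 8.64 times (6.21–12) in library 1 and 3.74 times (1.56–7.75) in library 2. Pdcd1 was called lower there, 2.55 times (1.44–4.99) and 3.78 times (0.668–150.4), where library 2 rests on 1 UMI and its interval holds 1. That UMI gives 81.8 CPM, under the 246 CPM at which a count of 0 would stand, so library 2 adds little to this call. The other 5 tested were not called, and Tigit was not tested. Over all 2892 genes tested 1.52% were called higher in the regulatory gate and 0.83% higher in the CD8 gate. In library 1 alone Rgs16 was 6.55 times lower (1.78–54.6), Havcr2 3.55 times lower (1.18–17.5), and Cd160, with no UMI, at least 2.57-fold lower than in the CD8 gate. The 6 regulatory-gated barcodes of library 2 had no UMI of these 3 genes and could not show a difference at this depth. After thinning to 1000 UMIs, which left 3 of them, 0 genes were called higher in the regulatory gate.

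Listed genes of regulatory T cells were called higher beside Ctla4. Il2ra, the high-affinity IL-2 receptor chain, was 6.3 times higher (3.62–10.6), Ikzf2 (Helios) 4.99 times (3.85–6.41), and Icos and Tnfrsf4 were also called. Both Il2ra and Ikzf2 are among the markers fixed for regulatory T cells. Cd5 was the 1 of 4 other inhibitory receptors called higher (3.44 times, 1.85–6.01). Of 14 effector genes 7 were called lower in the regulatory gate and none higher, the 7 being Gzmf, Gzmc, Prf1, Gzmd, Gzme, Ccl5 and Nkg7. No proliferation or naive and progenitor gene was called among 7 and 3 tested. The extremes of these lists were Top2a (1.83) and Ccnb2 (0.425) and Il7r (2.53) and Ccr7 (0.364).

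CD8-gated and CD4-gated barcodes could be compared only coarsely, since the CD4 gate held 23 and 8 barcodes. Of 7 genes tested none was called in either direction, at 0.866% higher in the CD8 gate and 1.87% higher in the CD4 gate of 2888 genes tested. Pdcd1 ratios were 0.823 (0.465–1.61) and 0.949 (0.362–3.53). Ctla4 ratios were 0.327 (0.159–0.781) and 1.07 (0.287–9.01), so that the interval left out 1 in library 1 only. Rgs16 had no UMI in the CD4 gate, and its interval in library 1 started at 1.13. Lag3, Cd160 and Tox rested on 0 or 1 UMI of the CD4 gate in each library, and differences were not detectable at this depth. Called list genes were Ccl4, Ccl5, Gzmc, Gzmf and Nkg7 of the effector list, Hmgb1 and Sh2d2a in the CD8 gate, and Tnfrsf4, Cd28 and Rgs1 in the CD4 gate.

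All T barcodes were set against monocyte-like plus macrophage-like barcodes, the myeloid cells in which LysM-cre acts. Of 7 genes tested 6 were called higher in T barcodes and Havcr2 was not, at 1.13 (0.902–1.41) and 1.68 (1.28–2.18) times. Over all 8648 genes tested 8.9% were called higher in T barcodes and 17.1% higher in the myeloid barcodes. The lowest ratio of the 6 was 30.6 times (15.7–66.8), for Lag3 in library 2, and Rgs16 in library 1 stood at 344 times (60.9–13694). Cd160 had no UMI in the myeloid barcodes of library 2 and was at least 104 times higher in T barcodes there, with 3 counts standing for the 0. Ligands were arranged the other way: Ceacam1, Cd86, Cd274, Cd80 and Lgals9 were called higher in the myeloid barcodes, and Pdcd1lg2 and Hmgb1 higher in T barcodes, of 8 tested. Cd274, which encodes the PD-1 ligand PD-L1, stood at 209 (188–233) and 197 (171–225) CPM in monocyte-like barcodes and at 4.67 and 3.81 CPM in melanoma-like barcodes. Of 10 other inhibitory receptors tested, Ceacam1, Lair1, Lilrb4a, Cd200r1, Entpd1 and Vsir were called higher in the myeloid barcodes, and Cd5, Cd96 and Klrc1 in T barcodes. Ceacam1 stands in the list of ligands and in that of receptors.

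Between the 2 libraries, none of 7 genes tested passed 2 times within CD8-gated barcodes, at 2.59% past it in library 2 and 6.38% in library 1 of 6112 genes tested (at least 20 UMIs over both libraries). The ratios of library 2 over library 1 were 0.898 (0.731–1.1) for Pdcd1, 0.914 (0.651–1.27) for Lag3, 1.1 (0.792–1.53) for Havcr2, 1.06 (0.709–1.56) for Cd160, 0.901 (0.632–1.27) for Tox and 1.05 (0.775–1.41) for Rgs16. Ctla4 was the exception, 1.92 times higher in library 2 (1.39–2.64). These UMIs were spread over many barcodes: no barcode held more than 7.32% of the UMIs of any of the 7 genes in the gate in either library. In regulatory-gated barcodes the Ctla4 ratio was 0.831 (0.345–1.73).

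**Figure D3:**
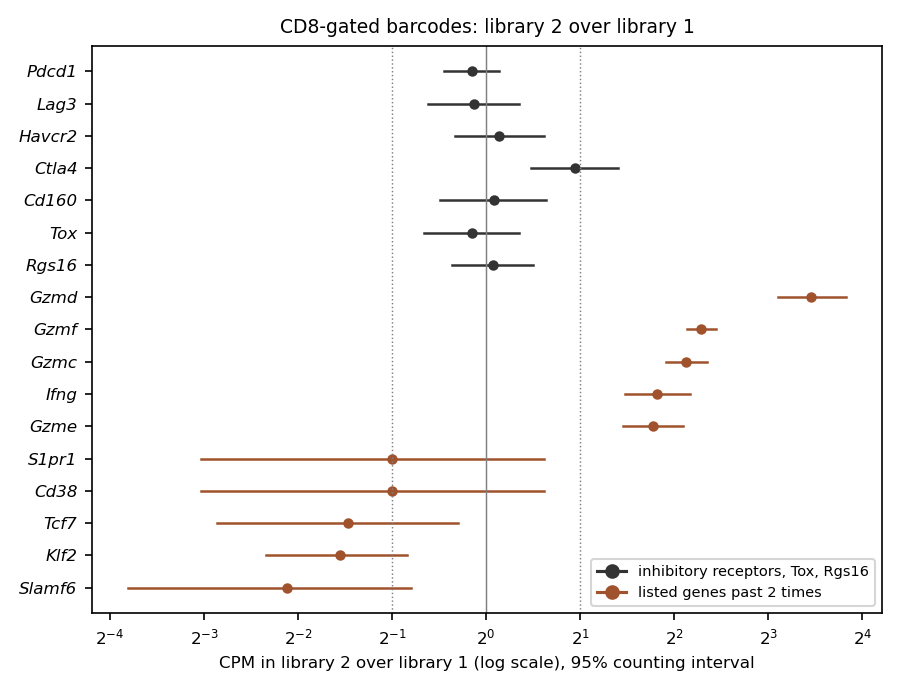
Ratio of CPM in library 2 over library 1 in CD8-gated barcodes (horizontal log axis, 95% counting interval) for the 7 genes of the set that could be tested (black) and the listed genes past 2 times (brown); dotted lines mark 2 times in each direction. The set lies near 1 except Ctla4 at 1.92, while granzymes C, D, E and F and Ifng lie between 3.42 and 11, and Slamf6, Klf2 and Tcf7 between 0.23 and 0.361.

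Some other listed genes differed more between the libraries in the same barcodes. Of 15 effector genes tested 5 were called higher in library 2 and none higher in library 1. The 5 were 4 granzymes and Ifng: Gzmd 11 times (8.59–14.2), Gzmf 4.88 times (4.38–5.44), Gzmc 4.37 times (3.76–5.09), Gzme 3.42 times (2.75–4.27) and Ifng 3.53 times (2.78–4.49). Other granzymes and perforin were not called, with ratios of library 2 over library 1 of 1.63 (1.39–1.91) for Gzmb, 0.956 (0.741–1.23) for Gzma, 0.529 (0.339–0.8) for Gzmk and 0.638 (0.535–0.757) for Prf1. The UMIs of the called genes sat in few barcodes. In library 1, 1 barcode held 43 of the 77 Gzmd UMIs, and in library 2, 1 barcode held 67 of the 190 Ifng UMIs. The share of barcodes with a UMI was 7.78% and 16.9% for Gzmc and 6.34% and 17.4% for Gzmf, but 11% and 9.75% for Ifng. Of 9 naive and progenitor genes tested 4 were called higher in library 1 and none higher in library 2. These were Klf2 2.94 times (1.8–5.05), Slamf6 4.35 times (1.73–14), Tcf7 2.77 times (1.23–7.32) and S1pr1 2.01 times (0.655–8.21). The other 5, which are Il7r (1.95), Ccr7 (1.69), Lef1 (1.53), Satb1 (1.46) and Foxo1 (1.27 times higher in library 1), were not called. Klf2 was seen in 21.3% (17.1–26%) of barcodes in library 1 and 5.93% (3.28–9.75%) in library 2. Cd38 was also past 2 times in library 1, on 17 and 4 UMIs. The libraries differ by genotype, pooled mice and preparation, which cannot be told apart.

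The gate was also split by a UMI of Gzmb, a granzyme of activated cells, a split chosen after the values were seen. It gave 112 and 100 barcodes with Gzmb and 235 and 136 without. Pdcd1 stood at 358 (308–414) and 288 (226–363) CPM with Gzmb and at 329 (277–388) and 337 (260.2–429.7) CPM without it. Havcr2 stood at 134 and 162 CPM with Gzmb and 104 and 93.4 CPM without it. Cd160 went the other way, at 64.9 (44.6–91.1) and 59.3 (33.2–97.8) CPM with Gzmb and 113 (83.5–149) and 135 (88.1–198) CPM without. Ctla4 lay on the side of Cd160, at 82.6 and 150.2 CPM with Gzmb and 101 and 207 CPM without. Rgs16 lay on the side of Havcr2, at 165 and 158 CPM with Gzmb and 127 and 150.4 CPM without. Lag3 (153 and 103 CPM with, 108 and 145 CPM without) changed sides between the libraries. Tox (126 and 75.1 CPM with, 117 and 156 CPM without) and Pdcd1 did so too. For each of these genes the intervals with and without Gzmb overlapped in both libraries. Tigit held at most 3 UMIs on either side. Barcodes with Gzmb were deeper, with medians of 3146 and 2058 UMIs against 1332 and 1110.

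How many of the 6 receptors 1 barcode showed was counted after each barcode was thinned at random to 1000 UMIs, which 271 and 166 CD8-gated barcodes reached. At least 1 receptor was seen in 53.1% (47–59.2%) and 54.2% (46.3–62%) of them, at least 2 in 13.7% (9.8–18.3%) and 22.3% (16.2–29.4%), and at least 3 in 1.48% (0.404–3.74%) and 3.01% (0.985–6.89%). Among NK barcodes of this depth 5 of 81 and 1 of 13 showed 1 receptor and none showed 2. Of melanoma-like barcodes 0.306% (0.113–0.666%) and 0.272% (0.145–0.465%) showed 1 receptor and none showed 2. Over all barcodes of each class, with those too shallow to thin, median depth was 18086 and 11795 UMIs against 1657 and 1441 in the CD8 gate. The melanoma-like share is therefore not taken as a background for the CD8 gate, and the effect of depth on stray RNA was not tested. Monocyte-like barcodes, with medians of 1822 and 1017 UMIs, were nearer in depth. In them 0.274% (0.0332–0.987%) and 0.202% (0.00512–1.12%) showed Pdcd1 at 1000 UMIs, 0.137% (0.00347–0.762%) and 0.202% (0.00512–1.12%) showed Ctla4, and 0 of 729 and 0 of 494 showed Lag3, Cd160 or Tigit. Havcr2 differed from these, seen in 10.8% (8.67–13.3%) and 8.5% (6.2–11.3%) of monocyte-like barcodes. Thinned shares in the CD8 gate were 25.1% and 28.3% for Pdcd1, 13.7% and 10.8% for Lag3, and 11.4% and 13.9% for Havcr2. Ctla4 was seen in 9.23% (6.06–13.3%) and 18.1% (12.5–24.8%), Cd160 in 8.12% and 8.43%, and Tigit in 0.738% and 0.602%. Without thinning the Ctla4 shares were 17.3% and 25%.

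**Figure D4:**
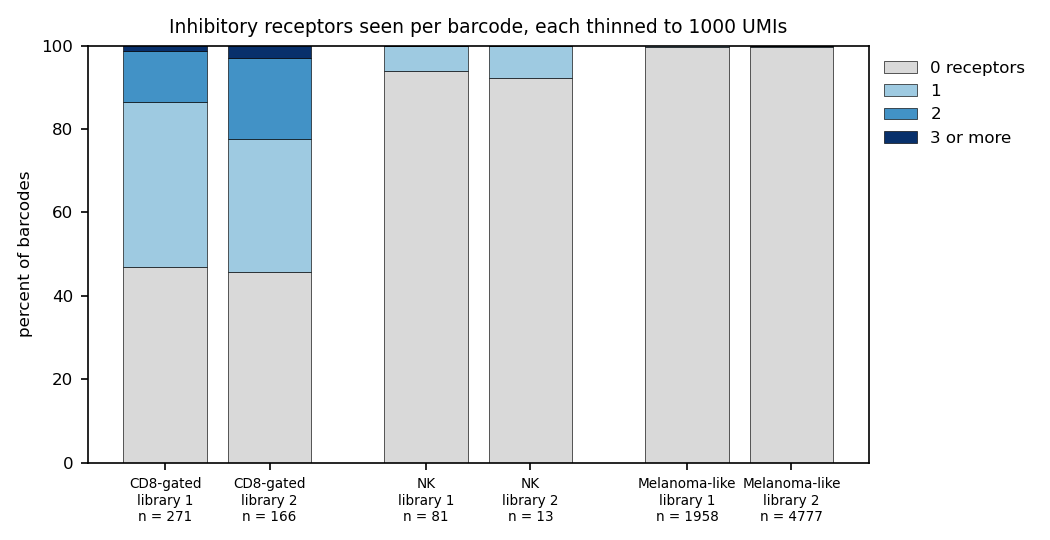
Percent of barcodes (vertical axis) in which 0, 1, 2 or at least 3 of the 6 receptors had a UMI, each barcode thinned to 1000 UMIs, for CD8-gated, NK and melanoma-like barcodes of library 1 and library 2. CD8-gated bars show at least 1 receptor in 53.1% and 54.2% of barcodes, and the melanoma-like bars in 0.306% and 0.272%.

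Pairs of the 8 genes were then asked whether seeing one raised the share with the other in the same barcode. Of 28 pairs in the CD8 gate, 7 had a higher share in barcodes with the partner in both libraries and 6 a lower share in both. Pairs with Tigit are among the 28, although only 2 and 1 of these barcodes showed Tigit, too few to read a direction. In none of the 28 did the 2 intervals stand apart in both libraries. Havcr2 and Rgs16 stood apart in library 1, with Rgs16 in 29% (14.2–48%) of barcodes with Havcr2 and 7.92% (4.83–12.1%) without. In library 2 the same shares were 17.4% (4.95–38.8%) and 14.7% (9.33–21.6%). The pair no longer stood apart when barcodes were thinned to 2000 UMIs, at 41.5% (26.3–57.9%) and 21.8% (14.2–31.1%) in library 1 and 23.5% and 28.6% in library 2. Pdcd1 and Tox went together in library 1, at 19.1% (10.6–30.5%) with Pdcd1 and 8.37% (4.95–13.1%) without, with overlapping intervals there and in library 2 (10.6% and 8.4%). Pdcd1 and Ctla4 gave 7.35% and 9.85% in library 1 and 27.7% (15.6–42.6%) and 14.3% (8.55–21.9%) in library 2. At 2000 UMIs the order of this pair turned in both libraries, to 10.7% and 10.4% in library 1 and 24.2% (11.1–42.3%) and 29.8% (17.3–44.9%) in library 2. Over all 28 pairs at 2000 UMIs, 6 had a higher share with the partner in both libraries, and again in none did the intervals stand apart in both. A lower share in both was counted for 5, among them Tigit with Ctla4, Cd160 and Tox. Library 2 had 0 barcodes with Tigit and 80 without at that depth. The pairs with Tigit therefore had no such share there, and their count as lower is empty. With 14 to 68 barcodes on the side with a partner other than Tigit, only wide differences could be seen.

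CD8-gated barcodes were last split by whether Pdcd1 was seen at 1000 UMIs, giving 68 with and 203 without in library 1 and 47 and 119 in library 2. Of 1066 genes tested, 0% were called higher with Pdcd1 and 0.375% higher without it, which are 4 genes, all of the lists: Ifng, Ccl3, Gzma and Birc5. Ifng, the macrophage-activating cytokine, had 4 UMIs with Pdcd1 and 37 without in library 1, and 4 and 75 in library 2. Yet 1 barcode held 43 of those 75 UMIs, and the shares of barcodes with Ifng overlapped (2.94% and 8.37%, 6.38% and 9.24%). Gzma, the granzyme of NK and memory cells, was seen in 11.8% of barcodes with Pdcd1 and 7.39% without in library 1, and in 4.26% and 2.52% in library 2, the opposite order to its UMIs. The 4 calls did not all hold under other draws. At 2000 UMIs 2 genes were called, Xcl1 lower with Pdcd1 and Gzma in the opposite direction to before, at 13.4 and 31.3 times higher with Pdcd1. Without thinning 2 were called, Cd69 and Gzmd, and 0 of the first 4 calls held in the same direction at either depth. A second random draw at 1000 UMIs called 2, Ifng and Ccl3. No gene outside the set is therefore given as moving with Pdcd1 in these barcodes.

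Other genes at the ends of this split were not called. On the side with Pdcd1 were Gzmd, Cd27, Mki67, Tnfrsf18, Ccl5, Cblb, Top2a and Rgs1, with log2 ratios over both libraries from 0.91 down to 0.3. On the side without it, beside the 4 called, were Ccl4 (-1.86), Xcl1 (-1.65), Prf1 (-0.56) and Nr4a2 (-0.28). Within the set the ratios in the 2 libraries were 1.06 and 1.69 for Lag3, 0.77 and 2.17 for Havcr2, 0.853 and 1.97 for Ctla4 and 1.49 and 0.633 for Rgs16, and the intervals of these 4 all held 1. Tox, which had too few UMIs to be tested, stood at 2.49 (1.17–5.23) and 1.15 (0.313–3.59).

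**Figure D5:**
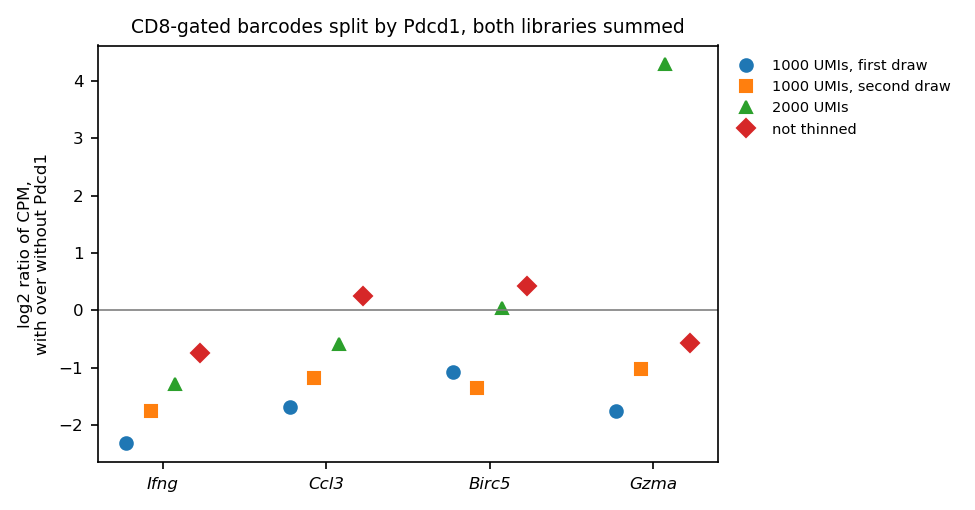
log2 ratio of CPM in CD8-gated barcodes with over without a Pdcd1 UMI (vertical axis, both libraries summed) for Ifng, Ccl3, Birc5 and Gzma, under 2 random draws of 1000 UMIs, a draw of 2000 UMIs and no thinning. Ifng stays below 0 in all 4, from -2.32 to -0.74, while the other 3 fall on both sides of 0, Gzma from -1.75 to 4.29. Without thinning, Ifng was seen in 11.2% of barcodes with Pdcd1 and 10.8% without in library 1, and in 12.4% and 8.16% in library 2. These shares overlapped and lay in the opposite order to the UMIs, of which 1 barcode without Pdcd1 held 67 of 110 in library 2.

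Likeness across classes was measured as Pearson's r of log2(CPM + 10) over 19 class and library points with at least 50 barcodes, among 1623 genes with at least 50 UMIs in T barcodes of each library. These r values are descriptions, since the points share libraries and the T classes set most of the spread. The genes most like Pdcd1 were Trac (0.974), Themis (0.962) and Cxcr6 (0.962), those most like Ctla4 were Bcl11b (0.946), Trac (0.928) and Lat (0.926), and those most like Tox were Zap70 (0.972), Thy1 (0.967) and Tnfrsf9 (0.962). Cd160 was near to Thy1 (0.978) and Zap70 (0.96). Rgs16 was nearest to Ifng (0.957), Ccl1 (0.92) and Gzmf (0.918). The other genes had looser neighbours: Havcr2 with Rbpj (0.885), S100a4 (0.862) and Ubash3b (0.8), Lag3 with Zmiz2 (0.835), Ccni (0.808) and Uhrf2 (0.805), and Tigit, on few UMIs, with Xcl1 (0.842), Prf1 (0.737) and Gzma (0.709).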

How the data were processed

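The matrix deposited by the authors holds raw UMI counts in 33700981 gene-by-barcode entries; Cell Ranger and mm10 are given by the submitters' processing notes, and a software version of 3.0.2 by the matrix header. The genes and lists were chosen with earlier results of these data known. Barcodes needed 500 UMIs or more, 200 genes or more and no more than 10% mitochondrial UMIs, copies were left out, and the highest 6% of Scrublet scores were removed. The genes reported and the lists stayed out of the 2000 genes used for clustering (scanpy 1.11.5, 30 components, 15 neighbours, Leiden resolution 1.0). Clusters were named from fixed markers. Some choices were made after the clusters were seen: how leading genes are ranked, leaving clusters led by haemoglobin genes unnamed, and joining conventional with migratory dendritic cells. Splitting the CD8 gate by Gzmb came later too.

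Levels have exact Poisson, shares exact Clopper-Pearson and ratios exact conditional binomial intervals at 95%. They assume independent molecules and are too narrow for genes carried by a few barcodes. In ratios a count of 0 stands at 3 counts, and a class at 0 is never called higher. Named genes are the 8 of the set, the highest and lowest ratio of each list, the 8 highest and 8 lowest ratios of the Pdcd1 split and the 3 genes most like each; other list genes were named after their values were seen. Some genes that this rule names are not reported here. The code was tested on simulated data. Positions are from GENCODE vM21 and sequences from RefSeq GRCm38.p6. Python 3.11.15, numpy 2.4.6, scipy 1.17.1, pandas 2.3.3, leidenalg 0.10.2 and igraph 0.11.9 were used.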

Additional observations from a re-analysis of the deposited data

How the results depend on the processing

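No paired analysis was possible because each genotype has 1 library and no result comes from a test. Of 58 counts recomputed under other settings, 52 stayed within 1.5 times. Of 154 levels of the 8 genes, 139 stayed within their counting interval. The number of genes higher in CD8-gated than NK barcodes went from 6 to 0 with at least 1000 UMIs per barcode and to 0 when barcodes were thinned to 1000 UMIs. NK barcodes of library 2 then numbered 13, and 3 counts were 152 and 231 CPM. Ctla4 was no longer called higher in the regulatory gate after that thinning (0 genes), which left 3 such barcodes in library 2. The genes called in the split by Pdcd1 went from 4 to 2 at 2000 UMIs, 2 without thinning and 2 in a second draw, which was added once the data had been seen. The log2 ratios turned to 4.29 for Gzma and 0.05 for Birc5 at 2000 UMIs, and to 0.26 for Ccl3 and 0.42 for Birc5 without thinning. The cause was not tested. At Leiden resolution 1.5 a T cell cluster stayed unnamed and the comparisons with the regulatory and CD4 gates could not be fitted. Leaving out T and NK barcodes above 20% of the melanoma level, also chosen after seeing the data, moved none of the 49 values recomputed with it. Depth limits Tigit, the regulatory and CD4 gates of library 2 and NK barcodes of library 2.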
